A study of Mus musculus with 21 samples.

Results

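The 9 genes described here, Trp63, Klf4, Klf5, Grhl1, Grhl3, Ovol1, Gata3, Zfp750 and Prdm1, encode transcription factors that set up keratinocyte identity or drive keratinocyte differentiation. They were taken by symbol from the 49315 gene identifiers in the count files, and each symbol matched 1 identifier. The series asked what the AP-2 factors encoded by Tfap2a and Tfap2b do in mouse epidermis, by RNA sequencing of epidermal sheets. It held 21 libraries in 7 groups of 3, and 13 of the files listed every gene at 0. At 6 months of age, 3 libraries of the strain-specific control (genotype given as WT) were compared with 3 of genotype K14CreTfap2afl/flTfap2bfl/fl (double knockout, DKO; double cKO or dcKO in the figures). At 3 weeks, 2 libraries of genotype K14CreTfap2bfl/fl (Tfap2b knockout, cKO or T2b in the figures) held counts and are given as values only, since no control of that age could be set beside them. In K14Cre mice the Krt14 promoter drives Cre, so the floxed alleles are targeted in basal keratinocytes and their descendants, and not in the immune or dermal cells that an epidermal sheet can also hold. The labels number the libraries but do not say that each came from a separate mouse, so p-values measure the spread between these libraries.

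The epidermis renews itself from basal keratinocytes, which divide, leave the basement membrane and pass through spinous and granular states before they form the cornified barrier. The p63 protein, encoded by Trp63, establishes the stratified epithelial fate and keeps the basal compartment, and Klf5 is best known from proliferating basal cells. Klf4, Grhl1, Grhl3 and Zfp750 switch on genes of the upper layers and the barrier. Ovol1 and Prdm1 (also called Blimp1) encode zinc finger repressors linked to cell cycle exit and to the last steps of differentiation, and Gata3 acts in the barrier and in the inner root sheath of the hair follicle.

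Counts per library at 6 months ran from 11318181 to 17746284, and every one of the 9 genes held between 504 and 24932 counts in each of the 8 libraries with counts. Control replicates 1 and 2 held 1.61 and 3.19 counts per exonic kb in odorant and vomeronasal receptor genes, while control replicate 3 held 0.148 and the libraries with the DKO label 0.107 to 0.195. At those densities such counts would make up at most 2.19% of the counts of any of the 9 genes in any library, the highest share being for Prdm1. Neither targeted gene was lost at the level of whole-gene counts: the log2 fold change of Tfap2a was 0.47 (SE 0.19, adjusted p 0.118 in edgeR) and that of Tfap2b -0.43 (SE 0.17, adjusted p 0.111 in edgeR). Reads outside a deleted exon still enter such a count. Directions in the results are therefore those of the libraries by their label, written DKO-labelled. Markers of epidermis were high throughout, with Krt10 at 5235 to 7824 CPM (counts divided by the library total and multiplied by 1e+06) at 6 months, and the summed level of 7 dermal fibroblast markers was 53.8 to 159 CPM in the controls, against 12.2 to 23.5 CPM in the DKO-labelled libraries.

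Because the series targets AP-2 factors, the promoters of the genes were searched for the AP-2 letters GCCNNNGGC, which read the same on both strands. RefSeq promoter windows (GRCm38.p6, 250 bases before to 50 after the start of transcription) were matched for 5 of the 9 genes, Klf4, Grhl1, Grhl3, Gata3 and Prdm1, in 6 windows. The motif occurred 3 times in the Gata3 window and 1 time each in the Klf4 window and in 1 of the 2 Grhl1 windows, and not in those of Grhl3 and Prdm1. For comparison, 16.6% of all 32851 windows of this length held it. The p63 consensus (CATG repeated after a gap of 6 bases), AACCGGTT (a Grhl site) and, on both strands, GGGTGNGGC (a Klf site) were in none of the 6 windows, and they occurred in 0.712%, 0.146% and 5.13% of all windows. The sequences given are the 250 bases before a RefSeq start of Prdm1, which fell in the DKO-labelled libraries, of Klf4, just outside the threshold, and of Gata3, which held the most matches. They are written 5′ to 3′ on the strand of the gene, with matches to the AP-2 letters in capitals. A match is a string of letters and not a measured binding site. The Prdm1 and Gata3 windows lie inside the counted gene spans, whose upstream ends are at 44528501 and 9890034. Sequence before those ends was not searched, though transcripts from there enter the counts.
Prdm1 (chr10:44458749-44458998, minus strand): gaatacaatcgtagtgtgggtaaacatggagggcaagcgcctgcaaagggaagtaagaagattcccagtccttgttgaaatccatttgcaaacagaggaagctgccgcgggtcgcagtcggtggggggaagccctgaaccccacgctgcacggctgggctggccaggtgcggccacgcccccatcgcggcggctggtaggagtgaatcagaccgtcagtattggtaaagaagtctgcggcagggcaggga
Klf4 (chr4:55532476-55532725, minus strand): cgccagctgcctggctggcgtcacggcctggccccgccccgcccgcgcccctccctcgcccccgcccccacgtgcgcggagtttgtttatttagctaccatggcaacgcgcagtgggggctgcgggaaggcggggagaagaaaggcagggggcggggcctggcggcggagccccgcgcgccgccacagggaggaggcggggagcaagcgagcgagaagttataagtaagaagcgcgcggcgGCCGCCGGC
Gata3 (chr2:9878601-9878850, minus strand): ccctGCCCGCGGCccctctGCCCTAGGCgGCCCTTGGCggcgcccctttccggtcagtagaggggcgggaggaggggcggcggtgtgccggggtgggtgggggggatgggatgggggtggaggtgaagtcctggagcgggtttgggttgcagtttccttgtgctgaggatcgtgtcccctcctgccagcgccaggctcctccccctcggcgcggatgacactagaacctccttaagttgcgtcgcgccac
The Klf4 match fills bases 9 to 1 before the start, and the first of the Gata3 matches begins 246 bases before it. At 6 months the log2 fold changes of the genes with a match were 0.05 for Gata3, -0.52 for Klf4 and -0.35 for Grhl1, and those of the genes without one in these windows -0.30 for Grhl3 and -1.29 for Prdm1. With 5 genes, and with Ovol1 not among them, nothing is read from these values about the motif.

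The 6-month comparison of DKO-labelled libraries with controls asks how transcript levels differ in adult skin with both genes targeted. Ovol1 and Prdm1 fell and the other 7 genes did not pass an adjusted p of 0.05 in edgeR's quasi-likelihood test. So 2 of the 9 were called, both lower, where 14.9% of all 17755 tested genes were called and 8.59% were called lower. All 9 passed the filter on low counts. Their median log2 fold change was -0.30, against -0.035 over all tested genes. The groups did not overlap for 5 of the 9 genes, Trp63 (higher) and Klf4, Grhl1, Ovol1 and Prdm1 (lower), where 38.7% of all tested genes did not overlap (22.5% higher, 16.3% lower). The count of called genes was 0 without replicate 1 or without replicate 2 of the DKO-labelled libraries, with 2 and 4 of the 9 genes at an unadjusted edgeR p under 0.05. Over all genes, only 668 of 21237 and 1043 of 21056 tested were called in those fits. A count of 0 of 9 is therefore not read as a result about these genes. Without control replicate 3 the count was 3. Calls over all genes also moved with the library left out, so that count is not read as a result about these genes either. Control replicate 3 alone against the DKO-labelled libraries gave log2 fold changes of -0.78 for Ovol1 and -0.98 for Prdm1. In whole tissue, fewer cells of a type and less RNA per cell cannot be told apart, and this holds for every gene below.

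**Figure D1:**
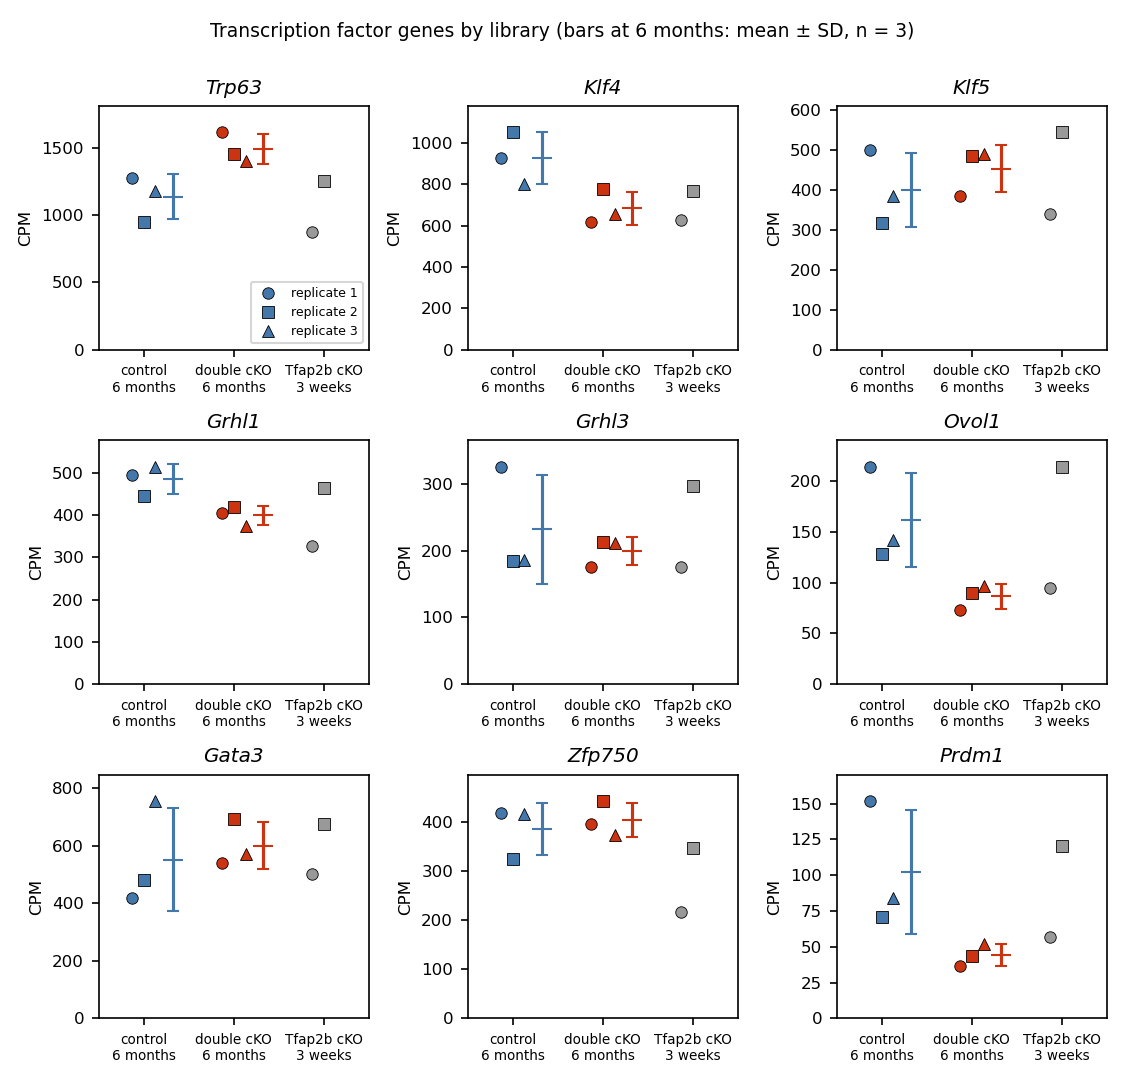
CPM (vertical axes, from 0) of each of the 9 genes in every library with counts, by group (horizontal axes), with symbols for replicate numbers and, at 6 months, a bar for the mean ± SD of 3 libraries. Ovol1 and Prdm1 lie lower in all 3 DKO-labelled libraries than in all 3 controls, control replicate 1 is the highest control for Grhl3, Ovol1 and Prdm1, and all 9 genes are lower in replicate 1 than in replicate 2 of the Tfap2b knockout.

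Ovol1 (ENSMUSG00000024922, chromosome 19, 5549137 to 5560575, minus strand, build GRCm38) is best known for holding back genes of proliferation, such as Myc and Id2, as keratinocytes leave the basal layer. Replicates 1 to 3 of the control stood at 214, 128 and 142 CPM, against 72.6, 89.7 and 96.6 CPM in the DKO-labelled libraries. Every DKO-labelled library lay below the lowest control, and control replicate 1 stood above the other controls. Ovol1 fell from 162 ± 46.1 to 86.3 ± 12.3 CPM (SD, n = 3 each). Its log2 fold change was -0.98 (SE 0.21, adjusted p 0.0168 in edgeR), or 0.507 times the control level. Without control replicate 1 the value was -0.71 and still past the threshold. It was -0.82 (edgeR adjusted p 0.0875) without replicate 1 and -0.97 (edgeR adjusted p 0.0540) without replicate 2 of the DKO-labelled libraries, no longer past it in either case. The genes Myc and Id2 did not pass the threshold (log2 fold changes of -0.25, SE 0.31, and -0.54, SE 0.28; edgeR adjusted p 0.627 and 0.211). An opposite-strand pseudogene, Gm31166, shares 690 exonic bases with Ovol1 and held 0 to 13 counts per library, so reads of that stretch may be missing from either gene.

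Prdm1 (ENSMUSG00000038151, chromosome 10, 44437177 to 44528501, minus strand) encodes a repressor found in granular keratinocytes, in sebaceous gland cells and in immune cells. Control libraries read 152, 70.8 and 84.1 CPM and the DKO-labelled libraries 36.5, 43.8 and 51.7 CPM. As for Ovol1, the groups did not overlap and control replicate 1 was the highest. Prdm1 fell from 102 ± 43.5 to 44.0 ± 7.62 CPM (SD, n = 3 each). Its log2 fold change was -1.29 (SE 0.29, adjusted p 0.0208 in edgeR), or 0.409 times the control level. Without control replicate 1 it was -0.88 and still called. It was -1.12 (edgeR adjusted p 0.0901) and -1.24 (edgeR adjusted p 0.0728) without replicates 1 and 2 of the DKO-labelled libraries, and then not called. Markers of cells in which Prdm1 is known were measured beside it. The summed level of 8 sebaceous gland markers was 757 to 952 CPM in the controls, against 214 to 250 CPM in the DKO-labelled libraries. Most of it was the desaturase gene Scd1, at 718 to 848 CPM, against 168 to 224 CPM. Of the 7 tested markers only Scd1 passed the threshold, lower. The others had log2 fold changes from -1.37 (Elovl3) to 0.58 (Awat2), so the fall of the sum is that of Scd1. The summed level of 6 granular keratinocyte markers was 3072 to 5010 and 1556 to 2786 CPM, with 2 of 6 called lower (Flg2 and Cdsn) and none higher. In the controls most of that sum was Flg2, at 1678 to 2520 CPM. In the DKO-labelled libraries Flg2 held 535 to 1107 CPM and was not most of the sum. Lor (log2 fold change -1.27, SE 0.49), Flg (1.01, SE 0.73), Hrnr (0.29, SE 0.29) and Casp14 (0.86, SE 0.28) did not pass the threshold, and Casp14 stood at 83.5 to 138 CPM in the controls, against 160 to 298 CPM. The summed levels of immune markers overlapped between groups. The 8 T cell markers summed to 115 to 230 CPM in the controls, against 128 to 293 CPM. Thy1 alone of these was called, higher, and the others had log2 fold changes from -0.94 (Cd3d) to 0.02 (Ptprc). The 8 markers of Langerhans and myeloid cells summed to 603 to 802 CPM, against 479 to 724 CPM, with 1 called, lower (H2-Ab1). As single genes, Thy1 and Csf1r (higher) and H2-Ab1 and Mpeg1 (lower) did not overlap. The part of these cell types in the fall of Prdm1 was not tested.

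Klf4 (ENSMUSG00000003032, chromosome 4, 55527143 to 55532466, minus strand), a zinc finger factor needed for the skin barrier, was at 925, 1052 and 803 CPM in control libraries, against 619, 775 and 655 CPM in the DKO-labelled libraries. All 3 of the latter were below the lowest control, by a narrow margin for replicate 2. The log2 fold change was -0.52 (SE 0.15) and the edgeR adjusted p 0.0505, just outside the threshold. It was inside it without control replicate 3 (-0.53, edgeR adjusted p 0.0239), with the receptor-gene density subtracted (-0.59, edgeR adjusted p 0.0416) and in the Wald test of DESeq2 (-0.47, adjusted p 0.0247). Klf5 (ENSMUSG00000005148, chromosome 14, 99298691 to 99313405, plus strand), its relative of the basal layer, stood at 499, 316 and 385 CPM in control libraries, against 385, 486 and 489 CPM in the DKO-labelled libraries. These groups overlapped, and control replicate 1 was higher than every DKO-labelled library (log2 fold change 0.10, SE 0.19, adjusted p 0.730 in edgeR).

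Because Klf4 and Klf5 were read in the same libraries, their ratio does not depend on how libraries are scaled. The log2 ratio of Klf5 to Klf4, in counts per exonic kb, was -0.07, -0.91 and -0.24 in control replicates 1 to 3 and 0.14, 0.15 and 0.40 in the DKO-labelled libraries. The ratio was higher in every DKO-labelled library than in every control. The difference between the group means was 0.63 with an exact two-sided permutation p of 0.10, the smallest that 3 libraries against 3 allow. It was 0.38 without control replicate 2, whose ratio was the lowest, and up to 0.80 with 1 other library left out. In the Tfap2b knockout at 3 weeks the ratios were -0.07 and 0.33. The Klf5 gene model in the files has 1721 exonic bases and ends before that of GENCODE M21, which has 5201. With the same counts over the longer length every ratio was below 0, from -2.51 to -1.66 in the controls and from -1.46 to -1.19 in the DKO-labelled libraries. Reads from the added bases are not in those counts, so these ratios are low estimates. The difference between groups in the same counts does not depend on the length.

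Grhl1 and Grhl3 encode grainyhead-like factors that act on adhesion and barrier genes. Grhl1 (ENSMUSG00000020656, chromosome 12, 24572287 to 24617391, plus strand) read 495, 445 and 515 CPM in control libraries, against 404, 420 and 375 CPM in the DKO-labelled libraries. The groups did not overlap, and with coefficients of variation of 7.38% and 5.64% Grhl1 was the steadiest of the 9 genes within both groups. Its log2 fold change was -0.35 (SE 0.12, adjusted p 0.0799 in edgeR), and it was called lower with the receptor-gene density subtracted (-0.42, edgeR adjusted p 0.0363). Grhl3 (ENSMUSG00000037188, chromosome 4, 135541888 to 135573630, minus strand) read 327, 184 and 186 CPM in control libraries against 175, 213 and 211 CPM. Control replicate 1 alone was high, and the other controls lay within the range of the DKO-labelled libraries. Its log2 fold change of -0.30 (SE 0.23, adjusted p 0.405 in edgeR) became 0.04 without control replicate 1. The log2 ratio of Grhl3 to Grhl1 per exonic kb was -0.79 ± 0.46 in the controls and -0.68 ± 0.19 in the DKO-labelled libraries (SD, n = 3 each), with an exact two-sided permutation p of 0.70.

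Trp63 (ENSMUSG00000022510, chromosome 16, 25683763 to 25892102, plus strand) stood at 1281, 952 and 1182 CPM in control libraries, against 1618, 1459 and 1405 CPM in the DKO-labelled libraries. It was the 1 gene of the 9 with every DKO-labelled library above every control. The log2 fold change was 0.32 (SE 0.15) and did not pass the threshold (edgeR adjusted p 0.172, and 0.0754 to 0.380 over 14 alternatives). Gene-level counts join the transcripts of its different start sites, so forms of p63 with and without the activating N-terminus were not told apart. Zfp750 (ENSMUSG00000039238, chromosome 11, 121510978 to 121519333, minus strand), a zinc finger gene known as a target of p63 in late differentiation, had 419, 326 and 416 CPM in control libraries, against 396, 444 and 374 CPM in the DKO-labelled libraries. The groups overlapped, the log2 fold change was -0.01 (SE 0.14, adjusted p 0.966 in edgeR), and its range over the alternatives was -0.12 to 0.12. It lies within Tbcd, on the other strand, and shares no exonic base with it.

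Gata3 (ENSMUSG00000015619, chromosome 2, 9857078 to 9890034, minus strand) had 419, 482 and 757 CPM in control libraries, against 539, 692 and 571 CPM in the DKO-labelled libraries. Control replicate 3 was the highest of all 6, and the other controls were the lowest. The log2 fold change was 0.05 (SE 0.21, adjusted p 0.893 in edgeR), 0.42 without control replicate 3 and -0.39 with control replicate 3 alone. Gata3 is also a factor of T cells, and the T cell markers summed to 115, 230 and 199 CPM in the controls, against 293, 245 and 128 CPM in the DKO-labelled libraries. Of these, 1 passed the threshold (Thy1, higher), and Cd3e held 25.2 to 62.0 CPM in the controls, against 14.6 to 51.4 CPM in the DKO-labelled libraries. The 8 inner root sheath markers summed to 35.0 to 47.2 CPM in the controls, against 22.9 to 34.8 CPM in the DKO-labelled libraries, with none called (edgeR adjusted p 0.0697 for Krt72, the lowest of the 8). The part of either cell type in the level of Gata3 was not tested. Gata3 shares 155 exonic bases with the antisense gene Gm13256 and 77 with 9230102O04Rik, both at no more than 98 counts per library.

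**Figure D2:**
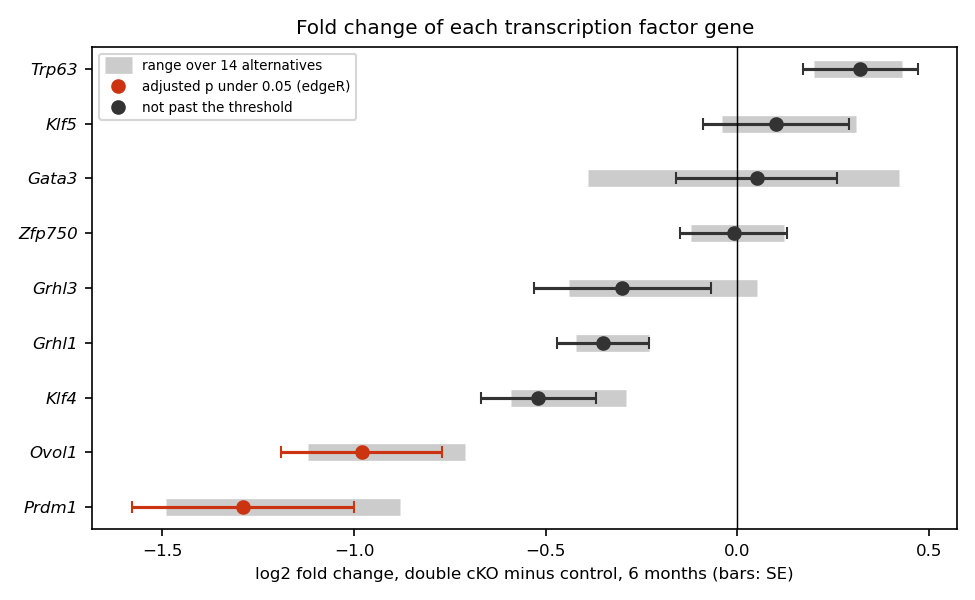
Log2 fold change of each gene, double knockout minus control at 6 months (horizontal axis), as points with SE bars, and as grey bands the range over 14 alternatives of processing or left-out libraries. Prdm1 at -1.29 and Ovol1 at -0.98 passed the threshold, and the bands of Klf5, Gata3, Zfp750 and Grhl3 cross 0.

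Levels of different genes can be set side by side per length of their exons. In the controls Klf4 was the highest of the 9, on the gene lengths in the files, at 304 ± 41.0 CPM per exonic kb, followed by Klf5 at 232 ± 53.6 (SD, n = 3 each). Gata3 (139 ± 45.2), Grhl1 (139 ± 10.2), Trp63 (136 ± 20.1) and Zfp750 (120 ± 16.4) came next and differed by less than their spread. Grhl3 (83.3 ± 29.3), Ovol1 (55.7 ± 15.9) and Prdm1 (18.6 ± 7.92) were the lowest in that order. In the controls only Ovol1 and Prdm1, among neighbours in the order, differed by more than the sum of their SDs. All but Prdm1 stood at or above the 96.8th percentile of the tested genes by mean control level per length, and Prdm1 at the 86.4th. In the DKO-labelled libraries Klf5 (263 ± 34.4) was above Klf4 (224 ± 26.8), followed by Trp63 (178 ± 13.2), Gata3 (151 ± 20.3), Zfp750 (125 ± 11.0) and Grhl1 (114 ± 6.45). In this group Klf4 and Trp63, and each step from Grhl1 down, differed by more than the sum of their SDs, and the other neighbours did not. Grhl3 at 71.6 ± 7.64, Ovol1 at 29.8 ± 4.25 and Prdm1 at 8.01 ± 1.39 CPM per exonic kb again closed the order, and Ovol1 ranked 8 and Prdm1 ranked 9 in all 8 libraries. The place of Klf5 depends on its length: over the M21 length the same counts gave 76.9 ± 17.7 CPM per kb in the controls and 87.1 ± 11.4 in the DKO-labelled libraries (SD, n = 3 each), rank 6 or 7 in every library, with Klf4 first in all 8. Reads from the added bases are not in those counts, so this is a low estimate.

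**Figure D3:**
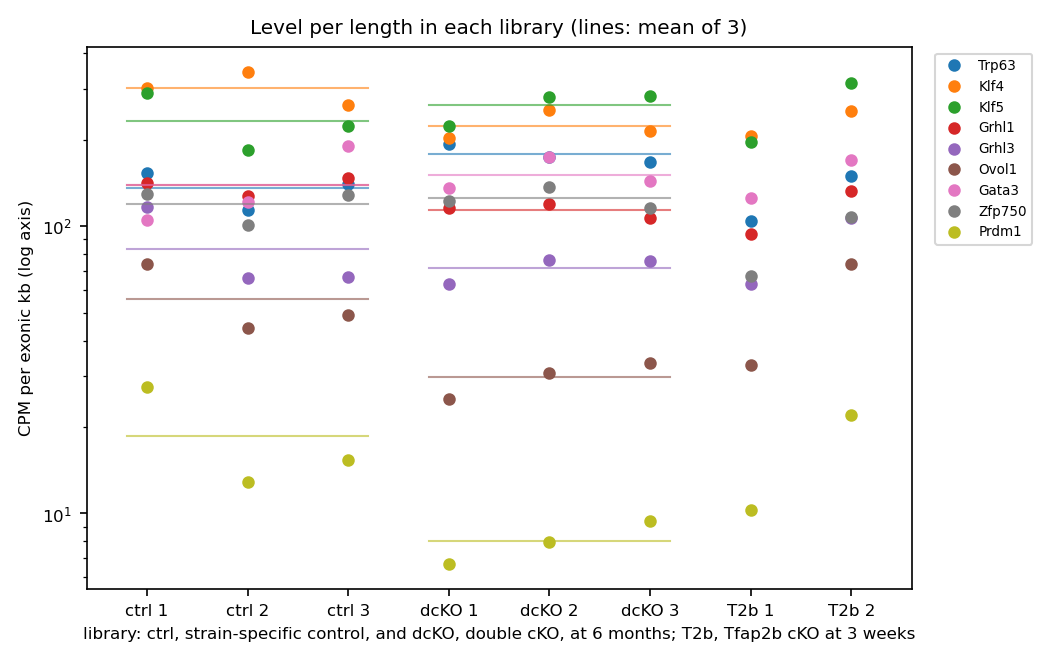
Level of each gene per exonic kb (vertical log axis) in the 8 libraries with counts (horizontal axis), with horizontal lines at the mean of the 3 libraries of a group at 6 months. On the gene lengths in the files Klf4 is the highest gene in each control and Klf5 in each DKO-labelled library. With the same Klf5 counts divided by its longer M21 length (not drawn), a low estimate for Klf5, Klf4 is the highest in all 8. Prdm1 is the lowest in all 8 libraries.

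Variation between libraries was shared by several of the genes. Control replicate 1 held the highest control level of Trp63, Klf5, Grhl3, Ovol1, Zfp750 and Prdm1, 6 of the 9 genes, and replicate 1 of the DKO-labelled libraries held the lowest level of its group for 6 genes. Within the controls the coefficient of variation was largest for Prdm1 (42.6%), Grhl3 (35.2%), Gata3 (32.5%) and Ovol1 (28.5%). All 9 genes varied less among the DKO-labelled libraries than among the controls, between 5.64% for Grhl1 and 17.3% for Prdm1. Over all genes the controls also differed more: chi-square per degree of freedom was 27 to 75.4 between controls, against 19.6 to 25.4 between DKO-labelled libraries. The shares of all tested genes with these patterns were not counted, so the patterns are not read as particular to the 9 genes.

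At 3 weeks, replicates 1 and 2 of the Tfap2b knockout held 872 and 1257 CPM of Trp63, 629 and 769 of Klf4, 339 and 544 of Klf5, and 328 and 464 of Grhl1. Grhl3 was at 176 and 298 CPM, Gata3 at 501 and 675, and Zfp750 at 217 and 348. Ovol1 stood at 95.1 and 214 CPM and Prdm1 at 56.7 and 121. All 9 genes were thus lower in replicate 1, and the share of all genes lower in it was not counted. That library held 2611 CPM of 7 dermal fibroblast markers and 442 CPM of 5 endothelial markers, against 17.4 and 0.32 CPM in replicate 2. The 8 sebaceous markers summed to 8347 CPM, against 599 CPM. Of these sums 8197 and 524 CPM were Scd1. Mgst1, Elovl3, Cidea and Mc5r were also higher in replicate 1, and Far2, Awat2 and Soat1 were lower. The part of dermal, endothelial or sebaceous cells in the lower levels of replicate 1 was not tested.

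The genes around the 9 factors were described by 5 lists, whose counts are read against the 6.26% of all tested genes called higher and the 8.59% called lower. With a library left out the total over all genes moves too. It was 668, 1043 and 1353 without replicates 1, 2 and 3 of the DKO-labelled libraries, against 2637 with no library left out. Totals for each left-out control are not given. List counts with a control left out are therefore not read as results about the lists. Family paralogs of the 9 genes numbered 26, of which 20 were tested, 2 were called higher, 3 lower and 15 not (median log2 fold change -0.15). Trp73, the p53 family member nearest to Trp63 in structure, rose from 4.24 to 9.83 CPM in the controls to 21.6 to 39.3 CPM in the DKO-labelled libraries (log2 fold change 2.07, SE 0.34, adjusted p 0.00545 in edgeR), a call lost with control replicate 3 alone (1.55). Grhl2, the third grainyhead-like gene, rose from 64.6 to 83.0 CPM to 107.8 to 122 CPM (log2 fold change 0.58, SE 0.14, adjusted p 0.0263 in edgeR), but lost the threshold in 7 of 14 alternatives, including each left-out library other than control replicate 3. Klf11 fell from 45.8 to 78.1 CPM to 24.6 to 31.6 CPM (log2 fold change -1.17, SE 0.22, adjusted p 0.00972 in edgeR), and was not called without replicate 1 of the DKO-labelled libraries (-1.10, adjusted p 0.0585 in edgeR) or with control replicate 3 alone (-0.78). Gata2 was near the floor, at 1.08, 5.48 and 1.04 CPM (13, 62 and 16 counts) in the controls. The DKO-labelled libraries held 0.145 to 0.341 CPM (2, 5 and 4 counts). It passed the filter on low counts only through the controls, so a fall was the only direction open to it. Its log2 fold change was -2.87 (SE 0.87, adjusted p 0.0285 in edgeR). The call was lost in 6 of 13 alternatives, among them each left-out DKO-labelled library and left-out control replicate 2 (-1.74). With the receptor-gene density subtracted Gata2 was not tested. The list's count of 5 became 12 without control replicate 3, 2 without control replicate 2, and 1, 2 and 2 without replicates 1, 2 and 3 of the DKO-labelled libraries.

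Of 24 other epidermal transcription factor genes, all tested, 7 were called higher, 1 lower and 16 not (median log2 fold change 0.26). Ehf, an ETS factor of epithelia, rose from 35.1, 38.0 and 47.7 CPM to 172, 63.1 and 176 CPM (log2 fold change 1.69, SE 0.36, adjusted p 0.0200 in edgeR), with replicate 2 of the DKO-labelled libraries well below the other two. It lost the threshold in 5 of 14 alternatives, among them without control replicate 1 or 2 and without replicate 1 of the DKO-labelled libraries (1.61, 1.65 and 1.54). Maf, linked to late keratinocyte differentiation, rose from 117.8, 94.8 and 140 CPM to 305, 299 and 332 CPM (log2 fold change 1.33, SE 0.16, adjusted p 0.00125 in edgeR) and was called in all 14 alternatives. Ppard, Hr, Rxra and Tfap2c were also called higher. Id1, an inhibitor of basic helix-loop-helix factors, fell from 30.1, 63.5 and 37.4 CPM to 17.6, 14.6 and 25.1 CPM (log2 fold change -1.26, SE 0.31, adjusted p 0.0275 in edgeR). It lost the threshold in 5 of 14 alternatives. Its value was -0.88 without control replicate 2, and -1.15 and -1.06 without replicates 1 and 2 of the DKO-labelled libraries. With the replicate block it was -1.22 and with control replicate 3 alone -1.02. The count of 8 became 13 without control replicate 3, 5 and 2 without control replicates 1 and 2, and 1 and 4 without replicates 1 and 2 of the DKO-labelled libraries.

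Among 18 chromatin regulators and cofactors of epidermal differentiation, 3 were called higher, 3 lower and 12 not (median log2 fold change -0.05). Wwtr1, which encodes the YAP relative TAZ, fell from 214, 173 and 171 CPM to 66.9, 83.4 and 90.8 CPM (log2 fold change -1.28, SE 0.17, adjusted p 0.00185 in edgeR) and was called in all 14 alternatives. Uhrf1 and Dnmt1, which maintain DNA methylation as cells divide, rose by log2 fold changes of 0.77 (SE 0.23, adjusted p 0.0459 in edgeR) and 0.67 (SE 0.19, adjusted p 0.0427 in edgeR), and lost the threshold in 8 and 9 of 14 alternatives, both of them without control replicate 1 or 2 and without replicate 1 or 2 of the DKO-labelled libraries. Beside them, 5 of 6 markers of proliferating cells were called higher, and their summed level was 87.4 to 187 CPM in the controls, against 323 to 439 CPM in the DKO-labelled libraries. The count of 6 became 2 without replicate 1 or replicate 2 of the DKO-labelled libraries, and 3 without replicate 3 of them or without control replicate 1 or 2.

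Genes of basal keratinocytes linked to p63 were more often called higher than lower, 6 against 1 of 15, with a median log2 fold change of 0.56, while Trp63 itself did not pass the threshold. Krt14 rose from 1018, 1171 and 1502 CPM to 3728, 3903 and 5079 CPM (log2 fold change 1.71, SE 0.19, adjusted p 0.000969 in edgeR). Itgb4, a subunit of the hemidesmosome integrin, rose from 275, 243 and 418 CPM to 648, 596 and 699 CPM (log2 fold change 0.98, SE 0.19, adjusted p 0.0118 in edgeR), and was not called without replicate 1 of the DKO-labelled libraries (1.03) or with control replicate 3 alone (0.58). The others called higher were Krt5, Itga6, Col17a1 and Dst. Cdkn1a, the cell cycle inhibitor p21, which p63 is known to repress, fell from 449, 368 and 335 CPM to 248, 279 and 290 CPM (log2 fold change -0.57, SE 0.15, adjusted p 0.0343 in edgeR) and lost the threshold in 9 of 14 alternatives, including each left-out library other than control replicate 3. The count of 7 was 4 without control replicate 1 or 2, 3 without replicate 1 of the DKO-labelled libraries, and 5 without replicate 2 or 3 of them.

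Of 20 late differentiation genes linked to Klf4, Grhl3 or Zfp750, 1 was called higher, 5 lower and 14 not (median log2 fold change -0.31). Cldn4, a claudin of tight junctions, fell from 263, 285 and 326 CPM to 116, 97.1 and 114 CPM (log2 fold change -1.49, SE 0.14, adjusted p 0.000448 in edgeR). Cdsn, which encodes the corneodesmosome protein corneodesmosin, fell from 990, 666 and 851 CPM to 325, 423 and 398 CPM (log2 fold change -1.21, SE 0.18, adjusted p 0.00344 in edgeR). Both were called in all 14 alternatives. Sptlc3, Plin2 and Dsc1 were also called lower. Dsg1b, a desmosomal cadherin gene with close paralogs that can share its reads, rose from 222, 208 and 283 CPM to 480, 461 and 428 CPM (log2 fold change 0.87, SE 0.14, adjusted p 0.00565 in edgeR), a call lost with control replicate 3 alone (0.63). The count of 6 became 3 without replicate 1 of the DKO-labelled libraries and 4 without replicate 2 of them or without control replicate 1.

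**Figure D4:**
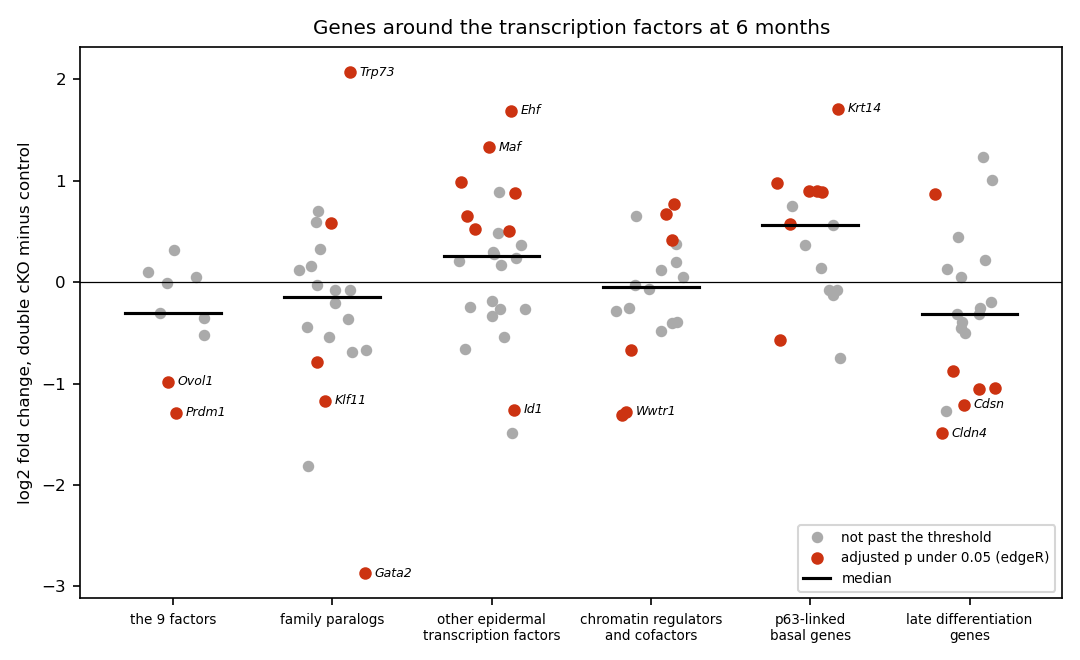
Log2 fold change, double knockout minus control at 6 months (vertical axis), of the 9 factors and of the tested genes of 5 lists (horizontal axis, points spread sideways at random), with a bar at each median and called genes in red. The median of the 9 factors is -0.30, that of the p63-linked basal genes 0.56 and that of the late differentiation genes -0.31.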

How the data were processed

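The deposited files give whole-number counts per gene, not normalized, 1 library per file, for 49315 Ensembl identifiers with exon coordinates and summed exonic length. Per the submitters' processing notes, Trimmomatic 0.36, STAR 2.5.2b and featureCounts of Subread 1.5.2 were used, and the builds GRCh38 and GRCm38 are named. How strand and multiply mapped reads were handled is not given in the sources used here. Per the labels' protocols, ribosomal RNA was depleted and 150 bp paired ends were read on a NovaSeq instrument. Symbols came from GENCODE M21 (GRCm38), which held 99.5% of the identifiers.

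Libraries were grouped by title. The test at 6 months was the quasi-likelihood test of edgeR 4.0.16 (R 4.3.3), run after filterByExpr and TMM scaling with robust dispersions and a prior count of 2. P-values of the 17755 genes were adjusted by Benjamini-Hochberg, and 0.05 was the threshold. The SE of a log2 fold change is the size of the coefficient before shrinkage divided by the square root of its F. CPM uses the library's total count without TMM factors. The procedure was tested on simulated data for this comparison, with 192 genes changed 4-fold among 18453 tested: 141 (73.4%) were recovered with the right sign, and 9 of the 150 calls were unchanged genes.

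The members and lists were chosen with earlier results of these data known. Named were all 9 members and, per list, up to 2 called genes with the largest change in each direction, with further called or defining genes by name; a few genes are not reported here. Replicates of 1 group differed by far more than counting noise (chi-square per degree of freedom 19.6 or more). The alternatives were median-ratio factors, total counts, no filter, DESeq2 1.42.0, a replicate block, subtraction of the density of counts in 1418 receptor genes, all libraries in 1 fit, each library left out and, chosen after seeing the data, control replicate 3 alone and the M21 length of Klf5.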

Additional observations from a re-analysis of the deposited data

How the results depend on the processing

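No filter on low counts moved the median of the genes tested in both fits by 0.111 on the log2 scale, and the other scalings by less than 0.1. All 14 alternatives kept Ovol1, Prdm1, Klf4 and Grhl1 negative and Trp63 positive. Ovol1 and Prdm1 each lost the threshold in 4, at -0.93 and -1.24 with all libraries in 1 fit, at -0.78 and -0.98 with control replicate 3 alone, and in 2 fits that left out a library (edgeR adjusted p up to 0.0907 and 0.0901). Over the 6 such fits Ovol1 ranged from -1.12 to -0.71 and Prdm1 from -1.49 to -0.88. Klf4 passed it in 3 (-0.47 with DESeq2, -0.59 with the receptor-gene density subtracted, and within its range of -0.58 to -0.40 with 1 library left out), and Grhl1 at -0.42 with the subtraction. The 4 genes near 0 changed sign. Zfp750 was 0.03 with DESeq2 and with all libraries in 1 fit, 0.10 without a filter, 0.05 with total counts and -0.12 to 0.12 with 1 library left out. Gata3 was -0.01 with the subtraction, -0.39 with control replicate 3 alone and -0.11 to 0.42 with 1 library left out. Grhl3 was 0.05 with control replicate 3 alone and -0.44 to 0.04, and Klf5 -0.04 to 0.31, with 1 library left out. The Grhl3 to Grhl1 log2 ratio difference of 0.11 was -0.07 to 0.37 with 1 library left out.

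The 2 called factor genes became 4 with the subtraction, 0 with all libraries in 1 fit (3 with an unadjusted edgeR p under 0.05), 0 with control replicate 3 alone (3) and 0 to 3 with 1 library left out. Over all genes, 2637 calls (1111 higher, 1526 lower) became 4192 with DESeq2, 1548 with all libraries in 1 fit, 437 with control replicate 3 alone, 4809 without a filter and 668 to 7544 with 1 library left out. With total counts the split was 1376 higher and 1327 lower. The labels do not say whether replicate numbers pair the samples. Deviations of same-numbered libraries correlated at 0.028, -0.161 and -0.057 across genes, and those of other pairs at -0.111 to 0.169. Deviations centred within such small groups cannot exclude a pairing. With the replicate block 1729 genes, 5 other epidermal transcription factors and 3 chromatin regulators were called, Ovol1 and Prdm1 among the genes past the threshold. Called family paralogs numbered 10 with DESeq2, 2 with all libraries in 1 fit, 1 with control replicate 3 alone, 9 without a filter and 1 to 12 with 1 library left out. Other epidermal transcription factors numbered 4 in 1 fit, 2 with control replicate 3 alone and 1 to 13 with 1 library left out. Chromatin regulators numbered 2, 2 and 2 to 7 in the same settings. The p63-linked and late differentiation lists each fell to 2 with control replicate 3 alone and ranged from 3 to 10 and from 3 to 7. The 17 list genes taken by the naming rule kept their direction in every alternative run and lost the threshold in 55 values and not in 182. The causes of these changes were not tested.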

Other observations

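The genes whose pattern over the 8 libraries was most like that of each factor were taken by the root mean square difference of centred log2(CPM + 0.5), among the genes tested at 6 months. For Ovol1 these were Yod1 (0.098) and Gm37052 (0.103), and for Prdm1 Rnf222 (0.099) and Oser1 (0.119). Yod1, a deubiquitinase gene, held 348, 197 and 214 CPM in control replicates 1 to 3, against 122, 144 and 171 CPM in the DKO-labelled libraries. Rnf222, which encodes a RING finger protein, held 26.0, 15.5 and 16.1 CPM against 6.59, 8.32 and 10.2 CPM. In all 4 of these genes control replicate 1 was the highest control and replicate 2 of the Tfap2b knockout was above replicate 1. They were chosen for likeness over these same 8 libraries, so this shared order follows from the choice. Among the nearest genes were Gm45483 (0.083) for Klf4, Tmprss13 and Gm13062 (both 0.113) for Klf5, Rngtt and Lin7c (both 0.047) for Grhl1, and Kctd5 (0.123) and Gm48249 (0.124) for Grhl3. For Trp63 they were Sass6 (0.074) and Zrsr2 (0.078), for Gata3 Ephb6 (0.077) and Nsa2 (0.083), and for Zfp750 Zmym2 (0.063) and Xpo1 (0.075). These are descriptions of 8 libraries that differ in genotype, age and depth.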
